A study of Mus musculus with 6 samples.

Results

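The 5 genes *Il12a*, *Il12b*, *Il23a*, *Il27*, and *Ebi3* encode the subunits of the cytokines IL-12, IL-23, and IL-27, and they were taken from the arrays by name, as every probe that is not a control and carries one of these 5 gene names. Each gene had 1 probe, so 5 of the 34786 gene names tested are described here. Gene expression was measured in macrophages that had been grown out of bone marrow for 7 days in medium conditioned by L929 cells. The cells came from wild type female mice of the C57/B6 strain, 6 to 8 weeks old by the sample labels. The methods of the study name the strain C57BL6/J and give a higher age range. There were 3 groups of 2 arrays each: untreated cells, cells given LPS (lipopolysaccharide, a bacterial ligand of TLR4) for 4 h, and cells given 10 µM HBX41,108, a small molecule inhibitor of the deubiquitinase USP7, for 30 min before the same LPS treatment (LPS+USP7i). The LPS dose is 100 ng/ml in the series description, while the dose in the sample labels corresponds to 100000 ng/ml. The 2 samples of a group came from independent experiments according to the series description, and no source used here says whether cells given LPS alone also received the solvent of the inhibitor. It is therefore unknown whether the solvent contributes to differences from LPS alone.

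The cytokines of this family are heterodimers that share chains. IL-12 pairs the product of *Il12a* with that of *Il12b*, IL-23 pairs the product of *Il23a* with that of *Il12b*, and IL-27 pairs the product of *Il27* with that of *Ebi3*. Macrophages and dendritic cells make these chains after Toll-like receptor stimulation, and the secreted dimers shape T cell and NK cell responses, with IL-12 known for driving interferon γ production, IL-23 for maintaining Th17 cells, and IL-27 for both promoting and restraining T cell responses.

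All 6 arrays lay on 1 slide and were read in 1 scan. Replicate number matched the first position index on the slide and treatment matched the second, so an effect of slide position cannot be told apart from treatment. Apart from controls there were 59305 spots per array, of which the scanner software called 27467 and 27126 well above background on the untreated arrays. On the LPS arrays it called 25223 and 25002 so, and on the LPS+USP7i arrays 26415 and 25290, and 0 spots were saturated. Levels are given as quantile-normalized log2 intensities, and the number of arrays limits the precision of every value. By the array annotation, on mouse build mm9, the *Il12b* probe lies at chr11:44227121-44227180 and the *Il12a* probe at chr3:68502346-68502405. The *Il23a* probe lies at chr10:127733766-127733825, the *Il27* probe at chr7:133736137-133736196, and the *Ebi3* probe at chr17:56096309-56096368. Whether these positions are coding or untranslated was not analysed here. The *Il12b* probe was printed in 10 spots and the other probes in 1 spot each. Across the 9 or 10 *Il12b* spots used on an array the SD was between 0.032 and 0.13 on the log2 scale.

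The promoters of *Il12b* and *Ebi3* are shown because both genes rose with LPS and were lower with the inhibitor. RefSeq promoter sequences (GRCm38.p6) were matched for 3 of the 5 genes, *Il12a* with 2 starts, *Il12b*, and *Ebi3*, and the 250 bases before each start were searched on both strands for 5 motifs. These were the NF-κB consensus, the AP-1 motif TGANTCA, the PU.1 motif GAGGAA, the IRF motif GAAANNGAA, and the C/EBP motif TTGCNNAA. Capitals mark the matches, and no base was shared by matches of different motifs (0 bases). The *Il12b* sequence is chr11:44399813-44400062 and the *Ebi3* sequence is chr17:55952373-55952622, both on the plus strand.
Il12b: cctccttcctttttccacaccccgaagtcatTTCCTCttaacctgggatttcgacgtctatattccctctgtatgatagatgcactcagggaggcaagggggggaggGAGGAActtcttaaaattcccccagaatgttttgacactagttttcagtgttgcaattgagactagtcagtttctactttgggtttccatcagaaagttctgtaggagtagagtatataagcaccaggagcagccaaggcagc
Ebi3: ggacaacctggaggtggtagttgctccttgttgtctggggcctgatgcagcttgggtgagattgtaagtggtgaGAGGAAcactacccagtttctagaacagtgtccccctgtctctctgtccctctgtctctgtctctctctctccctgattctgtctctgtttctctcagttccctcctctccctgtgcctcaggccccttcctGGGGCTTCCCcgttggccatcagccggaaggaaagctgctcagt

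The *Il12b* promoter held the PU.1 motif at 2 places, 219 to 214 bases before the start on the minus strand and 143 to 138 bases before it on the plus strand, and held none of the other 4 motifs. The *Ebi3* promoter held the NF-κB consensus at 1 place, 44 to 35 bases before the start, where both strands match, and the PU.1 motif at 1 place, 176 to 171 bases before it. Neither *Il12a* window held any of the 5 motifs. Among 32851 promoters of the same length, 7.25% held the NF-κB consensus, 23.3% the PU.1 motif, 6.75% the AP-1 motif, 7.13% the IRF motif, and 9.56% the C/EBP motif. A match is a string of letters and says nothing of binding. A promoter without a match may still hold a site whose letters differ from the motif searched.

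**Figure D1:**
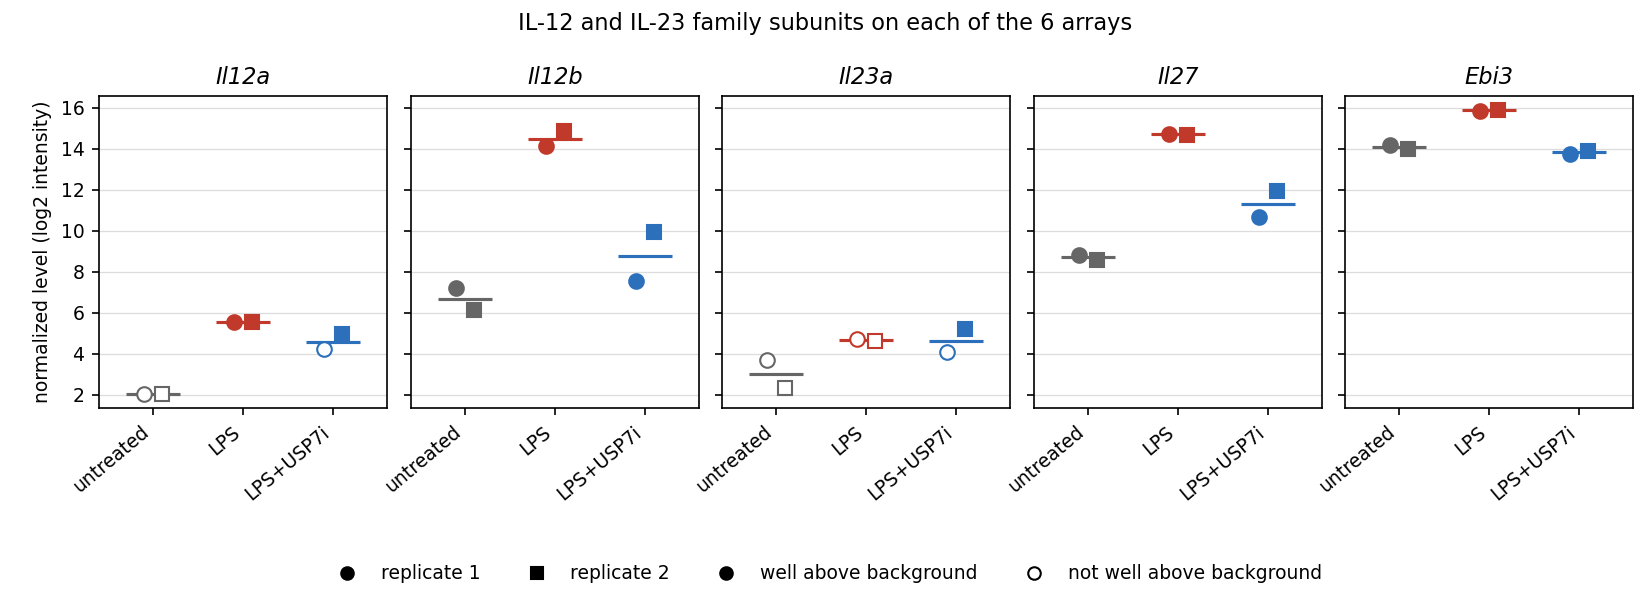
Normalized level (log2 intensity) of each subunit gene on each of the 6 arrays, with circles for replicate 1, squares for replicate 2, open symbols where the probe was not well above background, and a line at the mean of the 2 arrays. *Il12b*, *Il27*, and *Ebi3* were highest on both LPS arrays and lower on both LPS+USP7i arrays; levels of different genes cannot be set against each other, because each comes from its own probe.

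*Il12b* encodes the p40 chain, which IL-12 and IL-23 share. Its log2 level on replicates 1 and 2 was 7.19 and 6.13 without treatment, 14.12 and 14.85 after LPS, and 7.54 and 9.95 after LPS+USP7i. The probe was well above background on all 6 arrays, both LPS arrays lay far above the other 4, and both LPS+USP7i arrays lay above both untreated arrays, the first of them by 0.35 over the higher untreated array. The groups did not overlap in any of the 3 comparisons. LPS raised *Il12b* by 7.82 on the log2 scale (standard error 0.96, 95% interval 5.17 to 10.48, adjusted p = 0.0138), a 227-fold increase. The log2 difference was 6.93 between the arrays numbered 1 and 8.71 between those numbered 2, and it lay between 7.02 (normexp) and 8.35 over the alternatives listed in the methods. With LPS+USP7i it fell by 5.74 relative to LPS (standard error 0.96, 95% interval −8.39 to −3.08, adjusted p = 0.0474), a 53.4-fold decrease. Between the arrays numbered 1 the decrease was 95.8-fold and between those numbered 2 it was 29.7-fold. The inhibitor-treated arrays differed from each other more than those of either other group, with an SD of 1.70 against 0.51 with LPS and 0.75 in untreated cells. LPS+USP7i minus untreated was 2.09 (95% interval −0.57 to 4.74, adjusted p = 0.307) and missed the threshold, also under each alternative listed in the methods, where it lay between 0.88 and 3.29.

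The calls for *Il12b* did not hold in every fit with fewer arrays. The LPS call was lost without untreated replicate 1 or 2 (adjusted p = 0.0612 and 0.0790) and without LPS replicate 1 or 2 (0.0660 and 0.0702), and over all alternatives the adjusted p ran from 0.000512 to 0.0790. The inhibitor call was lost without either untreated array (0.113 and 0.113), without LPS replicate 1 or 2 (0.147 and 0.165), and without LPS+USP7i replicate 1 (0.0783, where the difference was −4.53), and in a fit of the 2 groups alone (0.113). It passed without LPS+USP7i replicate 2 (0.0364, −6.94), and over all alternatives the adjusted p ran from 0.00312 to 0.165. With arrays of the same number treated as a block, the inhibitor call was also lost (adjusted p = 0.0768). The log2 difference for the inhibitor was negative under every alternative listed in the methods, between −6.94 and −4.53. It stayed at −5.74 without either untreated array, because these arrays enter that comparison only through the shared estimate of the spread.

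*Il12a* encodes the p35 chain, the partner of p40 in IL-12. Its log2 level was 2.06 and 2.06 on the untreated arrays, 5.54 and 5.55 on the LPS arrays, and 4.22 and 4.97 on the LPS+USP7i arrays. The probe was well above background on both LPS arrays and on LPS+USP7i replicate 2 only, so the LPS arrays were highest, the untreated arrays lowest, and no 2 groups overlapped. With LPS, *Il12a* was at least 3.1-fold higher than in untreated cells in the quantile-normalized values, a bound that takes, on each untreated array, the lowest signal well above background where the probe's own was lower (log2 difference 3.48, standard error 0.27, adjusted p = 0.00575). The size of this difference depended on the processing, with 1.65 from the deposited log2 values and 0.68 after normexp background correction, and the call held in both. LPS+USP7i minus LPS was −0.95 (95% interval −1.69 to −0.20, adjusted p = 0.137), below LPS on both arrays but not past the threshold. It passed with dim probes left out (adjusted p = 0.0461) and without LPS+USP7i replicate 2 (0.0241), and over all alternatives the difference lay between −1.32 and −0.25 and the adjusted p between 0.0241 and 0.326. *Il12a* was also called higher with LPS+USP7i than in untreated cells (log2 difference 2.54, adjusted p = 0.0140), with no fold given because 1 of these 4 arrays was well above background, a call lost without untreated replicate 1 or 2 (0.0777 and 0.0809) and with the deposited values (0.0538). The deposited values put this difference at 0.79, 75th percentile scaling put it at 3.13, and normexp put it at 0.43 (adjusted p = 0.0408), within a range of adjusted p from 0.00236 to 0.0809 over all alternatives.

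The LPS+USP7i minus LPS difference of *Il12a*, which did not pass the threshold, was 4.79 on the log2 scale above that of *Il12b*. Whether the 2 differences differ was not tested, and *Il12a* was not well above background on LPS+USP7i replicate 1.

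*Il23a* encodes the p19 chain, the partner of p40 in IL-23. Its log2 level was 3.68 and 2.35 on the untreated arrays, 4.74 and 4.64 on the LPS arrays, and 4.10 and 5.19 on the LPS+USP7i arrays. Only LPS+USP7i replicate 2 was well above background, so no fold is given. The LPS arrays lay above both untreated arrays, and the LPS+USP7i arrays lay on either side of the LPS arrays. The log2 difference was 1.67 for LPS minus untreated (95% interval −0.01 to 3.36, adjusted p = 0.175) and −0.044 for LPS+USP7i minus LPS (95% interval −1.73 to 1.64, adjusted p = 0.999). For LPS+USP7i minus untreated it was 1.63 (95% interval −0.054 to 3.32, adjusted p = 0.208). None of the 3 differences passed the threshold under any alternative that gave a value, and LPS minus untreated lay between 0.27 and 2.34 over them. The interval for the inhibitor spans more than 1 log2 unit on each side of 0. A change of 1 log2 unit in *Il23a* in either direction is therefore not excluded. The sign of this difference turned with 75th percentile scaling (0.16), without LPS replicate 1 (0.0056), and without LPS+USP7i replicate 1 (0.50), and LPS+USP7i minus untreated was −0.014 with the deposited values.

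*Il27* encodes the p28 chain of IL-27. Its log2 level was 8.83 and 8.58 on the untreated arrays, 14.71 and 14.68 on the LPS arrays, and 10.66 and 11.91 on the LPS+USP7i arrays. All 6 arrays were well above background, and the 3 groups were separate, with untreated cells lowest, LPS+USP7i between, and LPS highest. LPS raised *Il27* by 5.99 (standard error 0.45, 95% interval 4.73 to 7.24, adjusted p = 0.00556), a 63.4-fold increase that passed the threshold under every alternative listed in the methods. With LPS+USP7i it fell by 3.41 relative to LPS (standard error 0.45, 95% interval −4.66 to −2.16, adjusted p = 0.0310), a 10.6-fold decrease, which was 16.6-fold between the arrays numbered 1 and 6.82-fold between those numbered 2. It was 5.97-fold above untreated cells (log2 difference 2.58, standard error 0.45, adjusted p = 0.0398). With arrays of the same number treated as a block, neither the decrease from LPS nor the difference from untreated cells was called (adjusted p = 0.0585 and 0.0661). Both sizes depended on the LPS+USP7i arrays: without replicate 1 the log2 differences were −2.78 from LPS and 3.21 from untreated cells, and without replicate 2 they were −4.04 and 1.95, with both calls kept each time. The inhibitor call was lost without untreated replicate 1 or 2 (adjusted p = 0.0939 and 0.0939), without LPS replicate 1 or 2 (0.124 and 0.114), and in a fit of the 2 groups alone (0.0939), within a range from 0.00224 to 0.124 over all alternatives. The call above untreated cells was lost without the same 4 arrays (0.144 and 0.170 for the untreated arrays, 0.102 and 0.102 for the LPS arrays) and in a fit of those 2 groups (0.102), within a range from 0.00482 to 0.170.

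*Ebi3* encodes the other chain of IL-27. Its log2 level was 14.18 and 13.99 on the untreated arrays, 15.85 and 15.87 on the LPS arrays, and 13.76 and 13.89 on the LPS+USP7i arrays. All 6 arrays were well above background, both LPS arrays lay above the other 4, and both LPS+USP7i arrays lay just below both untreated arrays. LPS raised *Ebi3* by 1.78 (standard error 0.096, 95% interval 1.51 to 2.05, adjusted p = 0.00368), a 3.43-fold increase, and this call held under every alternative listed in the methods. With LPS+USP7i it fell by 2.04 relative to LPS (standard error 0.096, 95% interval −2.31 to −1.77, adjusted p = 0.0106), a 4.11-fold decrease that was 4.28-fold between the arrays numbered 1 and 3.95-fold between those numbered 2. The call was lost without untreated replicate 1 or 2 and in a fit of the 2 groups alone, each with an adjusted p of 0.0559, within a range from 0.000349 over all alternatives. LPS+USP7i and untreated cells did not differ past the threshold (log2 difference −0.26, 95% interval −0.53 to 0.0073, adjusted p = 0.207), and this difference was 0.056 with 75th percentile scaling.

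*Il27* and *Ebi3* both fell with the inhibitor, and the change of *Il27* was −1.37 relative to that of *Ebi3*, −1.96 between the arrays numbered 1 and −0.79 between those numbered 2. Whether the 2 changes differ was not tested. For all 5 genes LPS+USP7i replicate 1 was lower than replicate 2. Outside the family, *Jak2* showed the same order (11.58 and 12.33) and *Irf8* the reverse (12.51 and 12.35). The share of all genes with this order was not counted.

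**Figure D2:**
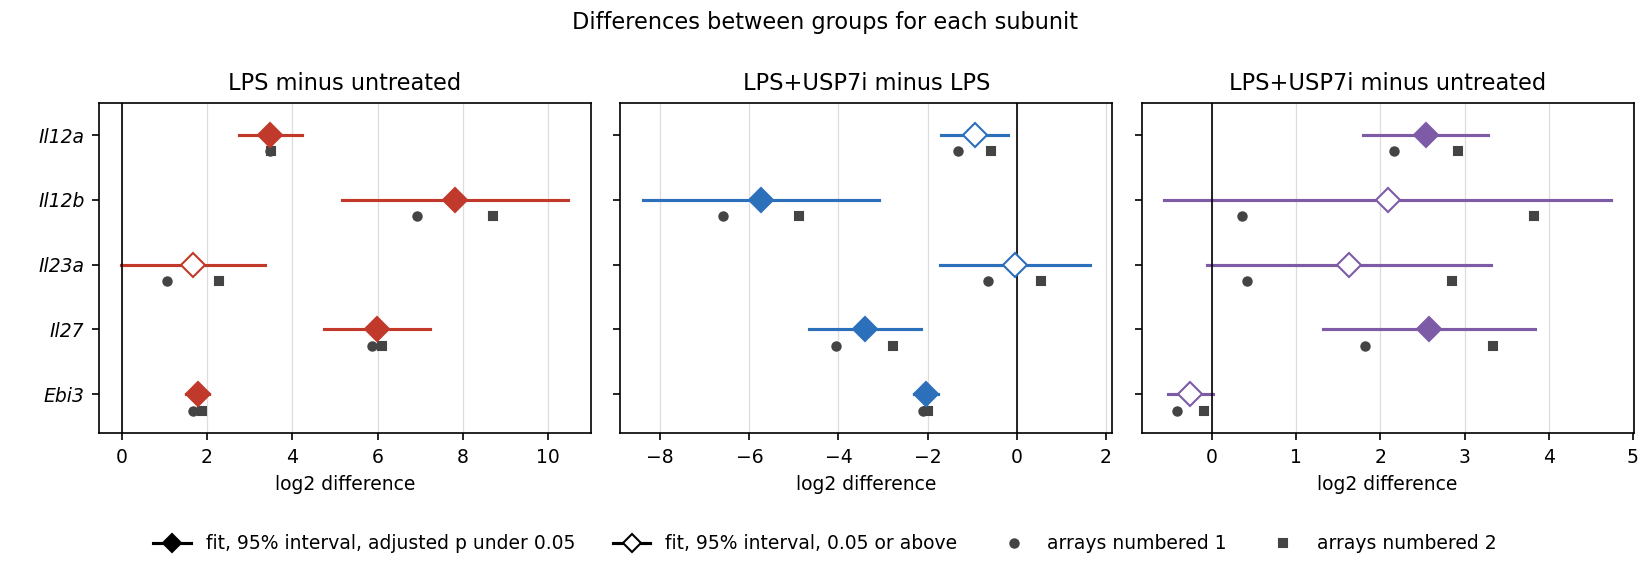
Log2 difference of each subunit gene in each comparison, with diamonds for the fitted difference, lines for its 95% interval, filled diamonds for an adjusted p under 0.05, and small symbols for the difference between arrays of the same number. With the inhibitor *Il12b*, *Il27*, and *Ebi3* fell by 5.74, 3.41, and 2.04, while the interval of *Il23a* spans 0.

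The first comparison asks which subunit genes responded to LPS. Of the 5 genes, 4 were called higher with LPS (*Il12b*, *Il27*, *Il12a*, and *Ebi3*) and 0 lower, where 7.99% of all 34786 genes were called higher and 12.7% lower. When arrays were scaled to their 75th percentile and not quantile-normalized, the median difference of all genes moved from 0.0018 to 0.40, and 34.8% of genes were called higher and 11.7% lower.

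The second comparison asks what the USP7 inhibitor did to the LPS response, and it shares its LPS arrays with the first. Of the 5 genes, 3 were called lower with LPS+USP7i than with LPS (*Il12b*, *Il27*, and *Ebi3*) and 0 higher, where 4.29% of all genes were called lower and 5.42% higher. The count fell to 0 of 5 by limma without untreated replicate 1 or 2 and in a fit of the 2 groups alone. In that fit 0 of all genes passed, although 3708 genes were lower and 4282 higher at an unadjusted p under 0.05.

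The third comparison asks what remained of the LPS response under the inhibitor, and it shares arrays with both others. Of the 5 genes, 2 were called higher with LPS+USP7i than in untreated cells (*Il12a* and *Il27*) and 0 lower, where 6.16% of all genes were called higher and 8.77% lower. With 75th percentile scaling the median of all genes moved to 0.43, and the shares were 34.9% and 9.66%. Neither call was kept without untreated replicate 1 or 2, fits in which fewer of all genes were called higher as well. The log2 difference was 2.54 for *Il12a* and 2.70 for *Il27* without untreated replicate 1. It was 2.54 and 2.45 without untreated replicate 2. With 2 arrays in each group, the smallest two-sided p that exact permutation allows is 0.333, which is above the threshold for every gene and comparison.

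For each subunit gene, the 3 genes with the nearest profile were taken by the smallest Euclidean distance between their 6 log2 values, each centered on its own mean, among 12089 RefSeq-matched genes that were well above background on both LPS arrays and had a value on every array. The nearest to *Il12b* were *Shisa3* at a distance of 0.95, *Nos2* (inducible nitric oxide synthase) at 1.56, and *Serpina3g* at 1.59. *Shisa3* was not well above background on either untreated array or on LPS+USP7i replicate 1, so its distance rests in part on values below background. The nearest to *Il12a* were *Slfn3* at 0.19, *Mxd1* at 0.26, and *Sod2* (mitochondrial superoxide dismutase) at 0.32, distances that use *Il12a* values not well above background on 3 of the 6 arrays. The nearest to *Il27* were *Calhm6* at 0.42, *Cd70* (a TNF superfamily ligand) at 0.53, and *Zfp811* at 0.69. *Cd70* and *Zfp811* were not well above background on either untreated array. The nearest to *Ebi3* were *Asb13* at 0.17, *Gda* (guanine deaminase) at 0.26, and *Csprs* at 0.28. The nearest to *Il23a*, whose own profile was mostly below background, were *Rubcnl* at 0.77, *Tjp1* at 0.90, and *Egfr* at 0.91.

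**Figure D3:**
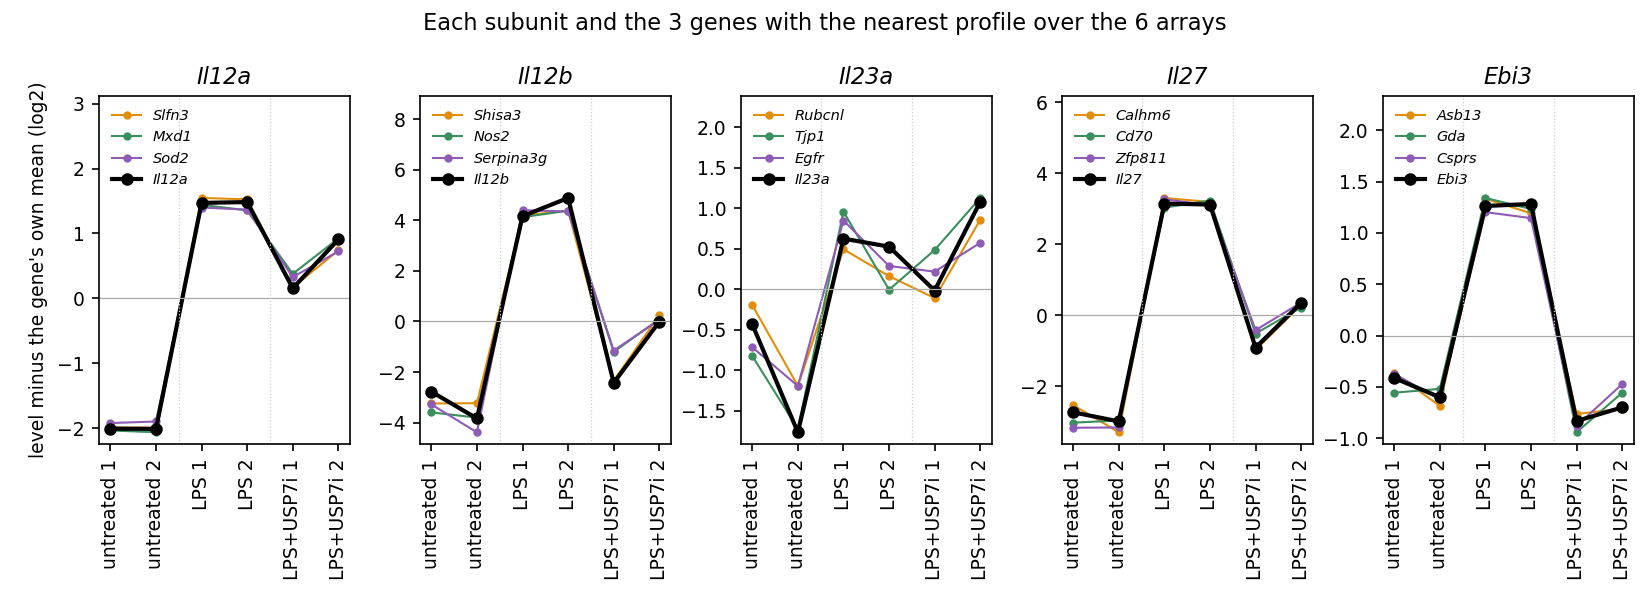
Level of each subunit gene (black) and of the 3 genes with the nearest profile (colors) on the 6 arrays, each minus its own mean (log2), with a separate vertical scale in each panel. The nearest profile lay at a distance of 0.17 for *Ebi3* and 0.42 for *Il27*; *Il12a* and *Il23a* were not well above background on 3 and 5 of the 6 arrays.

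The genes around the family were described by 33 genes in 4 lists, all measured. With LPS, 20 were called higher and 3 lower, with a median of 1.34, where 7.99% of all genes were called higher and 12.7% lower. With the inhibitor relative to LPS, 4 were called higher and 12 lower, with a median of −0.99, where the shares of all genes were 5.42% and 4.29%. In LPS+USP7i minus untreated, 15 were called higher and 5 lower, with a median of 0.34, where the shares were 6.16% and 8.77% and the median of all genes was −0.0022. The medians of all genes in the first 2 comparisons were 0.0018 and 0.00027.

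Of the 5 receptor chains, *Il23r*, the chain particular to the IL-23 receptor, was called higher with LPS (log2 level 2.16 and 2.18 untreated, 5.42 and 5.44 with LPS, at least 2.87-fold, adjusted p = 0.00402). It was not well above background with LPS+USP7i (3.47 and 3.99) and was at least 2.22-fold lower there than with LPS (adjusted p = 0.0235). Both bounds were set as for *Il12a* and hold for the quantile-normalized values only. The size of the *Il12a* difference depended on the processing, and no other processing is given for *Il23r*. *Il6st*, which encodes gp130, a chain of the IL-27 receptor, fell by 1.44 with LPS (adjusted p = 0.0162) and was higher by 1.61 with the inhibitor (adjusted p = 0.0257). The other 3 chains, *Il12rb1*, *Il12rb2*, and *Il27ra*, passed in neither comparison. The median of the list was 0.49 with LPS and −0.20 with the inhibitor. In LPS+USP7i minus untreated, 1 of the 5 was called higher (*Il23r*, below background in both groups) and 0 lower, with a median of 0.17.

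Of 5 receptor-associated kinases and STAT factors, 3 were called higher with LPS (*Jak2*, *Tyk2*, and *Stat3*) and 0 lower, with a median of 1.10. With the inhibitor 3 were called lower (*Jak2*, *Tyk2*, and *Stat4*) and 0 higher, with a median of −1.68. *Stat4*, the STAT factor known to act downstream of IL-12, had log2 levels of 7.92 and 8.32 on the untreated arrays, 9.41 and 9.86 on the LPS arrays, and 7.13 and 7.81 on the LPS+USP7i arrays, and fell by 2.16 with the inhibitor (adjusted p = 0.0381). Against untreated cells, 1 was higher (*Jak2*) and 1 lower (*Tyk2*), with a median of 0.049.

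Of 14 transcription factors known to act at the genes of the family, 10 were called higher with LPS and 1 lower (*Fos*), with a median of 1.39. With the inhibitor 5 were called lower (*Rel*, *Rela*, *Nfkb1*, *Nfkb2*, and *Irf8*) and 2 higher (*Cebpb* and *Fos*), with a median of −0.56. *Irf8*, an interferon regulatory factor known to act at the *Il12b* promoter, had log2 levels of 14.17 and 14.11 on the untreated arrays, 15.27 and 15.87 on the LPS arrays, and 12.51 and 12.35 on the LPS+USP7i arrays. Both inhibitor-treated arrays lay below both untreated arrays, and *Irf8* fell by 3.14 relative to LPS (adjusted p = 0.0139) and by 1.71 relative to untreated cells (adjusted p = 0.0211). *Rel*, the NF-κB subunit c-Rel, was not well above background in untreated cells. Its log2 level was 6.03 and 6.30 on the LPS arrays and 4.97 and 5.13 on the LPS+USP7i arrays, and it fell by 1.11 with the inhibitor (adjusted p = 0.0304). Against untreated cells 8 of the 14 were higher and 2 lower (*Irf3* and *Irf8*), with a median of 0.71.

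Of 9 genes known to restrain the family, 6 were called higher with LPS and 1 lower (*Bcl6*), with a median of 2.20. With the inhibitor 3 were called lower (*Nfil3*, *Maf*, and *Bcl3*) and 1 higher (*Atf3*), with a median of −0.99. *Maf*, a transcription factor known to repress *Il12b*, had log2 levels of 12.48 and 12.37 on the untreated arrays, 12.62 and 12.63 on the LPS arrays, and 10.68 and 10.64 on the LPS+USP7i arrays, and fell by 1.97 with the inhibitor (adjusted p = 0.00992). *Il10*, the cytokine best known to limit IL-12 production, rose by 2.99 with LPS (adjusted p = 0.0214), and its LPS+USP7i minus LPS difference of −1.48 did not pass the threshold (adjusted p = 0.151). Against untreated cells 5 were higher and 2 lower (*Maf* and *Bcl6*), with a median of 1.22.

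**Figure D4:**
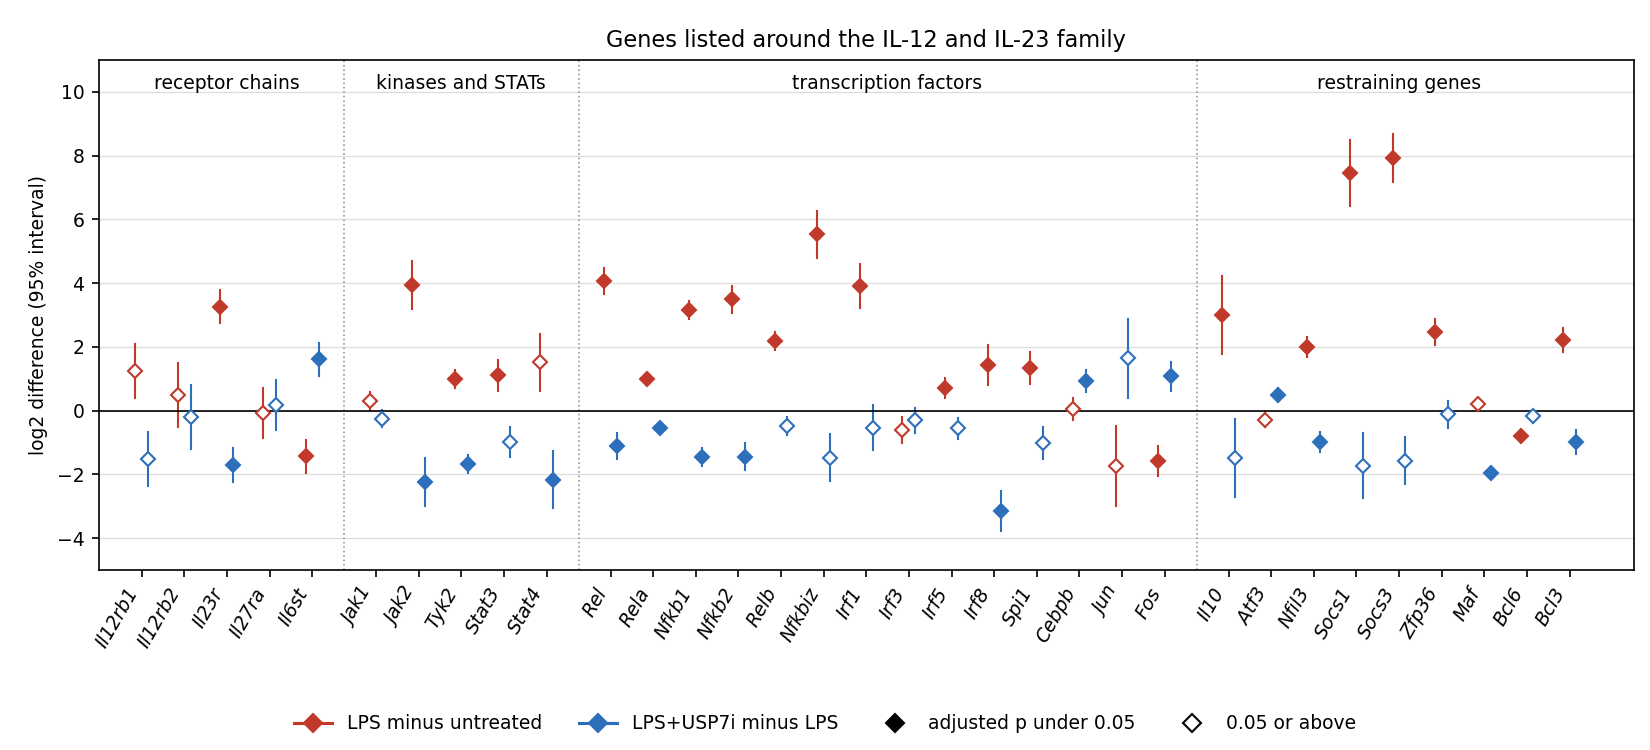
Log2 difference of the 33 listed genes for LPS minus untreated (red) and LPS+USP7i minus LPS (blue), with lines for the 95% interval and filled diamonds for an adjusted p under 0.05. With LPS 20 genes were called higher and 3 lower, and with the inhibitor 4 were called higher and 12 lower; both comparisons use the same LPS arrays.

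The labeled cell type was checked with markers. All 8 macrophage markers were well above background on every array, and the signals of their probes added up to 727770 and 719070 on the untreated arrays, 737890 and 746410 on the LPS arrays, and 624970 and 584970 on the LPS+USP7i arrays. With LPS *Cd14* was called higher and *Itgam* lower, and with the inhibitor 2 of the 8 were called lower than with LPS, the LPS co-receptor *Cd14* (log2 difference −1.33, adjusted p = 0.0176) and the Fc receptor *Fcgr1* (−1.61, adjusted p = 0.0318); *Fcgr1* was also lower than in untreated cells. Of 7 dendritic cell markers, 2 to 4 were well above background on each array, and the signals of their probes, nearly all from the *Siglech* probe (44986 on untreated replicate 1), added up to 46404 and 38929 on the untreated arrays, 27383 and 25849 on the LPS arrays, and 52262 and 35330 on the LPS+USP7i arrays. *Zbtb46* was called higher in both treated groups than in the untreated one, and *Flt3*, *Cd209a*, and *Xcr1* were not well above background on any array. Such sums follow the brightest probe and do not rank the genes by expression. Neutrophil markers (6 genes, brightest probe *Elane*) summed to between 4026 and 4601 on each array and T and NK cell markers (6 genes, brightest probe *Cd4*) to between 1787 and 2385, with 0 of either list called in any comparison by limma and *Cxcr2* and *Cd8a* not well above background on any array. B cell markers (4 genes, brightest probe *Ms4a1* or *Cd79a*) summed to between 68.9 and 532, and *Pax5* was called higher with LPS+USP7i than in both other groups, where it was not well above background. Of 5 fibroblast or stromal markers, *Pdgfrb* was called higher with LPS (log2 level 8.89 and 8.89 on the LPS arrays), so that the list summed to 572 and 539 there and to between 59.1 and 83.1 elsewhere, while *Col1a1* and *Pdgfra* were not well above background on any array. The part of these markers in the subunit results was not tested, and fewer cells of a type and less RNA per cell cannot be told apart in these samples.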

How the data were processed

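Spot intensities were deposited by the authors as scanner output of 1-color Cy3 Agilent arrays (Feature Extraction 10.7.3.1), background-subtracted and detrended by that software. Values on a log2 scale for the same spots, deposited by the authors as a second table, served as an alternative. Their medians were 5.07, 5.10, 5.09, 5.09, 5.10, and 5.09, and how background was handled in them is not given in the sources used here. The methods of the study name limma, quantile normalization, and an adjusted p value threshold, which were followed here. Log2 processed signals were quantile-normalized over non-control spots, spots marked as outliers were dropped, and the log2 values of a probe's spots were averaged. One linear model over all 6 arrays without a replicate block was fitted with limma 3.58.1 in R 4.3.3, with Benjamini-Hochberg adjustment over 55680 probes and a threshold of 0.05. Genes were represented by their probe with the highest mean, which gave 34786 gene names, 22221 of them matched to RefSeq. A probe was well above background on an array where more than a 0.5 share of its spots were so marked by the scanner software. Alternatives were 75th percentile scaling, normexp (offset 50), the deposited values, dim probes left out, outlier spots kept, a trended prior, only the 2 groups compared, a replicate block, each array left out, averaging a gene's probes, and requiring in addition a change of 1 log2 unit or more. The fit was tested on simulated data. The genes named are the subunit genes, the listed pathway genes and markers, and the 3 nearest profiles of each subunit gene. The subunit genes and lists were chosen with earlier results of these data known. Of the pathway genes listed at the outset, 1 is not reported here and is left out of the counts and medians.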

Additional observations from a re-analysis of the deposited data

How the results depend on the processing

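LPS minus untreated was the most stable comparison: 4 of the 5 genes were called higher with all arrays, and 3 to 4 with an array left out. In LPS+USP7i minus LPS, where 3 were called lower, the count was 0 in a fit of the 2 groups alone and 0 to 4 with an array left out. In LPS+USP7i minus untreated, where 2 were called higher, it was 1 with the deposited values, 1 in a fit of the 2 groups alone, and 0 to 2 with an array left out. With an array left out, the single array of that group is assumed to vary like the other groups, and fewer arrays enter the fit. In LPS+USP7i minus LPS, limma called 0 genes in a fit of the 2 groups and without untreated replicate 1 or 2, with 3708, 3709, and 3708 genes lower and 4282, 4284, and 4275 higher at an unadjusted p under 0.05. Over all alternatives the genes called lower there ran from 0 to 2397 (1491 in the report) and those called higher from 0 to 2857 (1887). In LPS minus untreated, 1140 to 12092 genes were higher (2780) and 1642 to 5283 lower (4433). In LPS+USP7i minus untreated, 476 to 12134 were higher (2144) and 572 to 4002 lower (3050). Replicates of the same number share only a number in the labels: their deviations from the group means correlated with r = 0.47, 0.40, and 0.42 over 20705 probes, which are not independent. With the replicate block, 4, 1, and 1 of the 5 genes were called in the 3 comparisons, in the order above: *Il12b* (adjusted p = 0.0768) and *Il27* (0.0585) were not called in LPS+USP7i minus LPS, nor *Il27* in LPS+USP7i minus untreated (0.0661). Of all genes, the block called 8.42% higher in the first comparison, 3.25% lower in the second, and 6.32% higher in the third. Without the block these shares were 7.99%, 4.29%, and 6.16%. *Il23a* has no value with dim probes left out. No called difference of a subunit gene turned its direction under any alternative, while 3 differences that were not called did, those of *Il23a* in both inhibitor comparisons and that of *Ebi3* in LPS+USP7i minus untreated.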
